A study of Mus musculus with 34 samples.

Results

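Mta1, Mta2 and Mta3 encode the metastasis-associated (MTA) proteins, and their read counts were followed through every line and culture of an RNA-seq study of mouse embryonic stem (ES) cells. The 3 genes were chosen by name, by matching Ensembl identifiers to mouse symbols. They stand among 22018 genes counted in 18 libraries of single mutants and their parents, and among 48709 genes counted in 16 libraries of control and triple-mutant cells. All 3 passed the filter on low counts in each of the 10 comparisons made.

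MTA proteins are subunits of NuRD, a complex that joins histone deacetylation to ATP-dependent nucleosome remodelling. They form a scaffold that holds the deacetylases Hdac1 and Hdac2 and the histone chaperones Rbbp4 and Rbbp7, and Mbd2 or Mbd3 links these to the remodellers of the Chd family. NuRD is known in ES cells for damping the transcription of pluripotency genes and for allowing cells to leave self-renewal.

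The study asked how far MTA proteins can replace each other in ES cells. Every library was labelled as strain 129/Ola. The single-mutant set was labelled 2i+LIF, which is culture with the cytokine LIF and inhibitors of the kinases Mek and Gsk3 (2iL), and held 3 libraries each of Mta1_flox/flox, Mta1_del/del, Mta2_WT, Mta2_KO, Mta3_flox/flox and Mta3_del/del cells. The second set held 4 libraries each of Control and Mta123KO cells labelled 2i+LIF and 4 of each labelled 48 h in N2B27 medium without inhibitors or LIF, and these 4 came from 2 lines per genotype.

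The alleles differ in how much of each transcript they remove. The Mta1_del allele lost exon 2 through Cre recombinase, which puts the later exons out of frame. Cre excision of the floxed Mta2 allele removes exons 4 to 13, and that the Mta2_KO cells carry this allele is read from the account of the mouse lines, not from the labels. Mta123KO cells carry the deleted Mta1 and Mta3 alleles, and in them Mta2 exons 2 to 18 were replaced by a puromycin cassette on one chromosome and deleted on the other. The cell line list gives the Control lines 1 deleted Mta1 allele and floxed Mta3 alleles, but elsewhere the comparator is called wild type, and the labels read only Control. Which Control lines were sequenced is not given per library, so values set against Control may be relative to 1 or to 2 intact copies of Mta1. The Mta2_KO cells are listed as a single line, and the exon lost in Mta3_del is not given in the text of the sources used here. Nothing in the labels says that numbered libraries of the single mutants came from separate cultures, so p-values measure the spread between these samples, which may be technical.

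On GRCm38, Mta1 (ENSMUSG00000021144) lies on the plus strand of chromosome 12 from 113098278 to 113137206. Mta2 (ENSMUSG00000071646) lies on the plus strand of chromosome 19 from 8941875 to 8952303. Mta3 (ENSMUSG00000055817) lies on the plus strand of chromosome 17 from 83706163 to 83821516. No exon of another annotated gene overlapped theirs. Their reference transcripts begin alike, with 28 coding bases in exon 1, 68 bases in exon 2 and 94 bases in exon 3 in all 3 genes.

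Exon 2 is shown because it is the exon lost in Mta1_del and because its likeness bears on whether reads can be assigned to 1 gene. It is coding throughout and lies at chr12:113112146-113112213 in Mta1, chr19:8943465-8943532 in Mta2 and chr17:83708399-83708466 in Mta3. The sequences below run 5′ to 3′ on the plus strand, with capitals where all 3 genes have the same base:
Mta1: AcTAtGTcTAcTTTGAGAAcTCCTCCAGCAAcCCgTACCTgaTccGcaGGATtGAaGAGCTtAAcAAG
Mta2: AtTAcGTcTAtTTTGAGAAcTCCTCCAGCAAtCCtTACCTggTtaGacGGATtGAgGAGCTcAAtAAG
Mta3: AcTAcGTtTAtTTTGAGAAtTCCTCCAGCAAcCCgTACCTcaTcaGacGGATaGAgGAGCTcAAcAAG

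The 3 exons shared 51 of 68 bases. Pairwise identity was 80.9% for Mta1 and Mta2, 83.8% for Mta1 and Mta3, and 85.3% for Mta2 and Mta3. Over all annotated transcripts the longest identical run was 20 bases for Mta1 with either paralogue and 18 bases for Mta2 with Mta3, so a longer exact match belongs to only 1 of the 3 genes. Exon 2 makes up 2.45% of the 2775 bases of the Mta1 reference transcript, which is too little for a whole-gene count to test its loss. Exons 4 to 13 hold 33.9% of the 3135 bases of the Mta2 transcript, and exons 2 to 18 hold 83.8%.

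A library of single mutants or their parents held 13105820 to 40613585 counts, and one of Control or Mta123KO cells 37855790 to 57602285. The fewest reads on an MTA gene in any library were the 211 on Mta2 in 1 Mta123KO library. Counts were scaled within each set to CPM (counts scaled to 1000000 per library) with TMM factors, so CPM values of the sets were not tested against each other. The culture labels of the second set go against the markers and against the names of the deposited files. The summed level of 8 genes of naive ES cells (Nanog, Esrrb, Klf4, Zfp42, Tfcp2l1, Tbx3, Prdm14 and Nr0b1) was 158 to 242 CPM in Control libraries labelled 2iL and 3681 to 4041 CPM in those labelled 48h. All 8 genes were higher in every Control library labelled 48h than in any labelled 2iL. A list of 7 genes of formative epiblast and early neural cells (Fgf5, Otx2, Pou3f1, Dnmt3b, Sox1, Nes and Pax6) went the other way, with 847 to 1365 CPM in Control libraries labelled 2iL and 102 to 109 CPM in those labelled 48h. Groups are named as labelled, and every direction given with culture reverses if the cultures are exchanged. In the single-mutant set, labelled 2iL, the naive list summed to 3173 to 5775 CPM, and neither list had a gene without reads in any group.

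Mta1 was the paralogue that differed most between parents. In Mta1_flox/flox libraries Mta1 was counted at 105, 69.0 and 79.1 CPM. In Mta3_flox/flox libraries it was counted at 74.5, 71.8 and 85.0 CPM. The Mta2_WT libraries held 22.4, 26.5 and 18.6 CPM, and every one of them lay below every library of the other parents. The highest of these parental means was 3.74 times the lowest for Mta1, 1.25 times for Mta2 and 1.29 times for Mta3.

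Mta2 varied less across parents, although every Mta1_flox/flox library stood above every Mta3_flox/flox library. It was counted at 275, 267 and 241 CPM in Mta1_flox/flox, at 209.9, 196 and 222 CPM in Mta3_flox/flox and at 233, 247 and 231 CPM in Mta2_WT. Mta3 was counted at 100.2, 91.9 and 65.2 CPM in Mta1_flox/flox, at 60.6, 69.0 and 70.4 CPM in Mta3_flox/flox and at 70.8, 68.4 and 66.4 CPM in Mta2_WT, with overlapping ranges throughout.

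**Figure D1:**
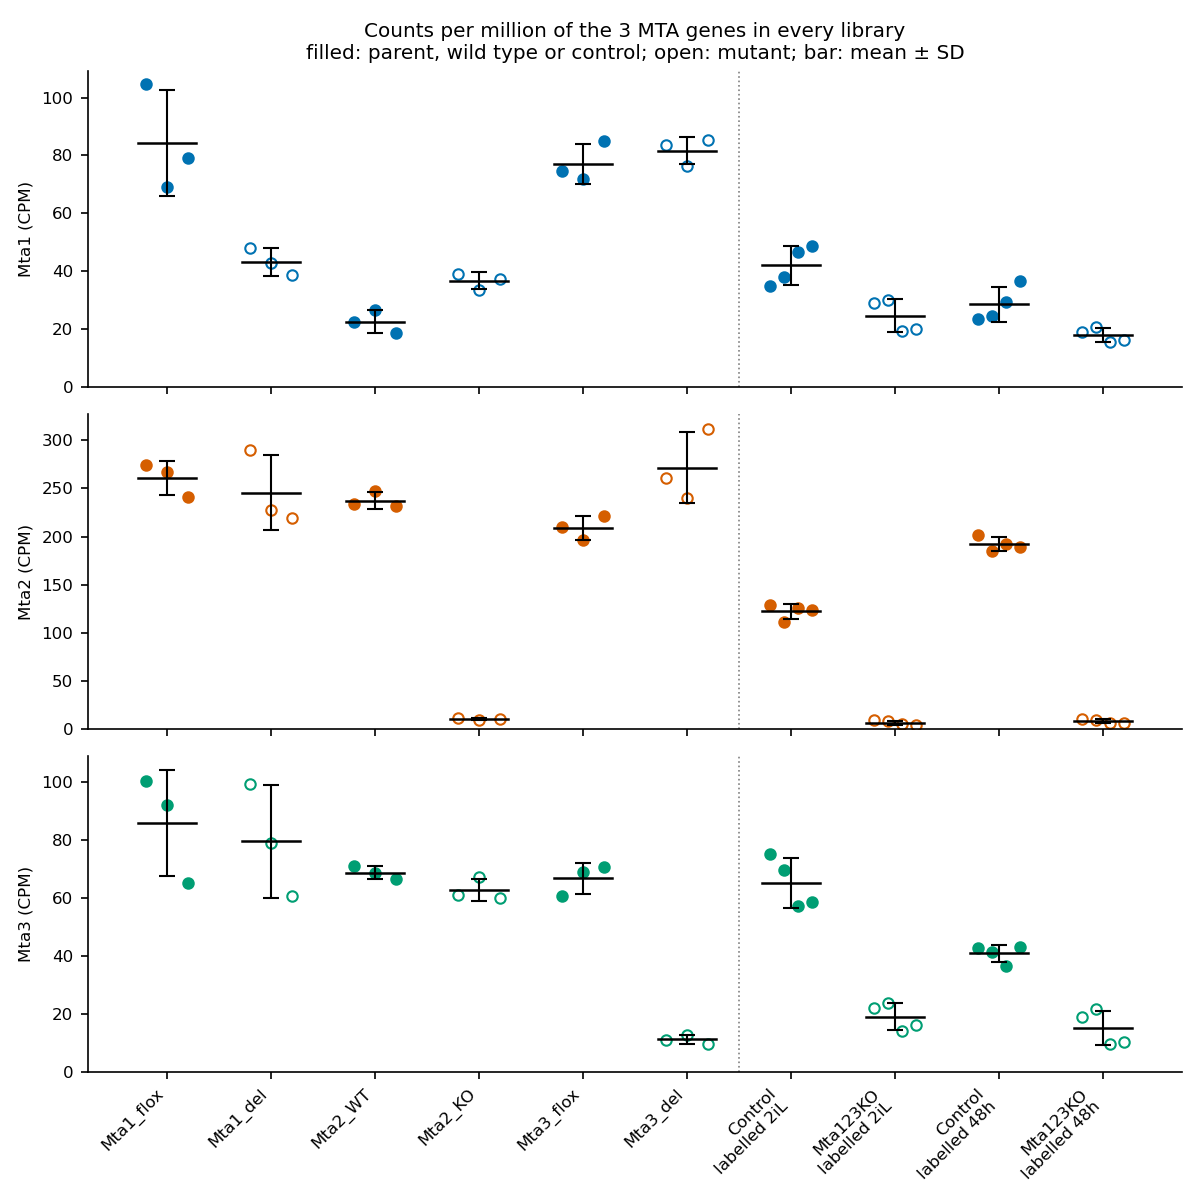
CPM of Mta1, Mta2 and Mta3 on the vertical axes, each from 0, in all 34 libraries by group, with the single-mutant set left of the dotted line and the second set right of it. Points are libraries, filled for parent, wild type or control and open for mutants, and bars give the mean ± SD. Mta2 stands between 196 and 275 CPM in the 9 parental libraries and between 9.23 and 11.9 CPM in Mta2_KO.

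Per kilobase of merged exons, which allows genes to be compared within a library, Mta2 was the most abundant MTA transcript in every library with intact Mta2. Its mean level was 63.7 ± 4.25 CPM per kilobase (SD, n = 3) in Mta1_flox/flox, where Mta1 had 27.1 ± 5.92 and Mta3 16.1 ± 3.44. In Mta2_WT it was 58.0 ± 2.12 CPM per kilobase (n = 3), against 12.9 ± 0.421 for Mta3 and 7.26 ± 1.27 for Mta1. Mta2 thus made up 59.8% of the summed MTA level in Mta1_flox/flox, 57.8% in Mta3_flox/flox and 74.3% in Mta2_WT.

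The order of the other two was less certain. Mta1 stood above Mta3 in all 3 libraries of Mta1_flox/flox and of Mta3_flox/flox, and below it in all 3 of Mta2_WT. In Control cells both orders occurred under either culture label, and the ranges of Mta1 and Mta3 overlapped. Dividing by the longest annotated transcript instead of merged exons put Mta3 above Mta1 in all 8 Control libraries and in some libraries of Mta1_flox/flox, where the ranges then overlapped, and left the order unchanged in Mta3_flox/flox and Mta2_WT. In Control and Mta1_flox/flox the order thus rests on the length used. For Mta3 these lengths were 5319 and 3287 bases, while its reference transcript has 2087, by which levels were not computed. The paper reports that the short Mta3 isoform predominates in ES cells. A shorter length would raise Mta3 beside the other genes, so its order and shares elsewhere may depend on length too. Mta2 stood first under both lengths.

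**Figure D2:**
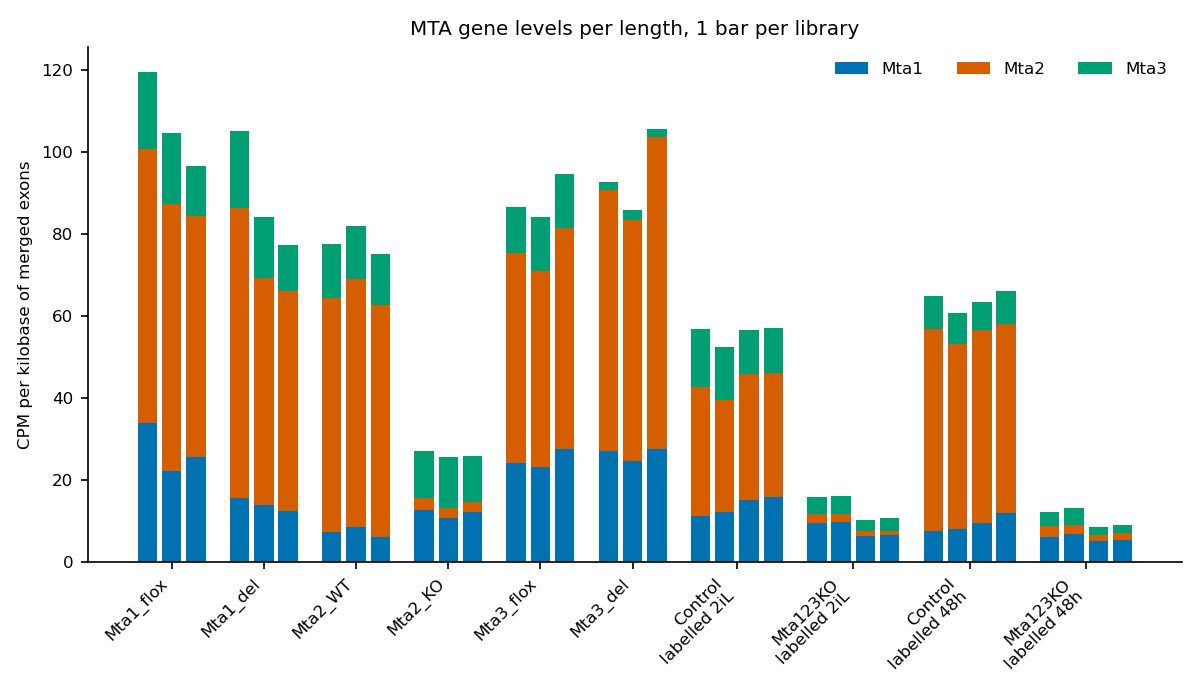
Level per length on the vertical axis, in CPM per kilobase of merged exons, with 1 stacked bar per library and colours for the 3 MTA genes. The summed level runs from 75.0 to 81.8 in Mta2_WT and from 25.6 to 27.0 in Mta2_KO, where Mta1 and Mta3 make up most of it.

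In Mta1_del/del cells Mta1 was counted at 48.0, 42.7 and 38.5 CPM, each below every Mta1_flox/flox library. The mean was 43.1 ± 4.77 CPM (n = 3), which is 51.1% of the parental 84.3 ± 18.4 CPM (n = 3), although the allele leaves 97.6% of the transcript length. The log2 fold change was -0.97 (standard error, SE, 0.18, unadjusted p = 8.97e-04). Mta1 had the smallest p of the 14561 genes tested, but its Benjamini-Hochberg adjusted p was 1.0, and 0% of genes were called higher and 0% lower in edgeR. At an unadjusted p under 0.05 only 50 genes stood, and DESeq2 called 1 gene, Mta1 (log2 fold change -0.97, adjusted p = 0.0469).

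The paralogues did not pass the test in Mta1_del/del. Mta2 was counted at 290.4, 227 and 219 CPM, and Mta3 at 99.2, 78.7 and 60.4 CPM, ranges that overlap those of the parent. Their log2 fold changes were -0.10 (2 standard errors either side reach from -0.39 to 0.19) and -0.12 (from -0.58 to 0.34). Library 1 was the highest of its group for all 3 genes in Mta1_del/del, and for all 3 in Mta1_flox/flox as well. The fit above ignores this pairing by number. With a block for the replicate number, the log2 fold changes were -0.10 for Mta2 (SE 0.10) and -0.12 for Mta3 (SE 0.092). Neither passed (edgeR adjusted p = 0.983 for both), nor did Mta1 (-0.96, SE 0.12, adjusted p = 0.797).

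In Mta2_KO cells Mta2 fell to 11.9, 9.23 and 10.4 CPM, values that rest on 309 to 454 reads a library. This is 4.43% of the wild-type mean, while excision of exons 4 to 13 would leave 66.1% of the transcript length. The log2 fold change was -4.50 (SE 0.087, adjusted p = 1.11e-09). In this comparison 24.3% of 15602 genes were called lower and 23.5% higher.

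Mta1 rose in Mta2_KO cells. It was counted at 39.1, 33.4 and 37.3 CPM, each above every Mta2_WT library, a difference of 0.69 on the log2 scale (SE 0.12, adjusted p = 0.00117). The call held without each library in turn. Of all genes tested, 79.6% changed by less than Mta1. The raised mean of 36.6 ± 2.93 CPM (n = 3) was still below the lowest library of either floxed parent, 69.0 CPM. Mta3 was counted at 61.0, 67.0 and 60.0 CPM in Mta2_KO, with 1 library inside the wild-type range, and did not pass the test (log2 fold change -0.13, adjusted p = 0.066). Without library 2 of Mta2_KO or library 3 of Mta2_WT it passed, at -0.19 (adjusted p = 0.0197) and -0.16 (adjusted p = 0.0481).

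On the per-length scale the gain of Mta1 in Mta2_KO was 4.53 CPM per kilobase and the loss of Mta2 was 55.4. The summed MTA level was 26.1 ± 0.737 CPM per kilobase (n = 3) against 78.1 ± 3.44 (n = 3) in Mta2_WT. In Mta2_KO, Mta1 made up 45.1% of the sum and Mta3 45.1%, with ranges that overlapped, and Mta2 9.80%. With the longest transcript as the length, Mta1 made up 36.6% and Mta3 53.9%, and Mta3 stood above Mta1 in all 3 libraries with no overlap.

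Some genes around Mta1 also differed. Of 20 other genes tested within 1000000 bases on either side, 9 were called higher and 1 lower in Mta2_KO. Over all genes 23.5% were called higher and 24.3% lower. The log2 fold changes of these 20 ran from -0.85 to 2.83, with a median of 0.46, while the median over chromosome 12 was 0. Around Mta2, 3 of 30 genes were called higher and 9 lower, and around Mta3, 1 of 9 each way. Marker lists also differed, with calls to be read beside the same shares over all genes. The naive list summed to 3525 to 3656 CPM in Mta2_KO against 4831 to 5122 CPM in Mta2_WT, with 7 of 8 genes called lower and 1 higher. The 4 trophoblast markers (Cdx2, Elf5, Gata3 and Krt8) summed to 5.26 to 7.18 CPM against 29.1 to 30.8 CPM, with 2 called lower and 1 higher. The part of these in the rise of Mta1 was not tested. The clonal origin of the single Mta2_KO line and the genotype cannot be told apart.

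In Mta3_del/del cells Mta3 fell to 11.0, 12.8 and 9.65 CPM, values that rest on 221 to 329 reads a library. This is 16.7% of the Mta3_flox/flox mean. Its log2 fold change was -2.63 (SE 0.15, adjusted p = 5.53e-04). Mta3 had the smallest p of 15522 genes, and the call held without each library in turn. In this comparison 7.84% of genes were called lower and 8.32% higher.

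Mta2 was counted at 261, 241 and 312 CPM in Mta3_del/del, each above every Mta3_flox/flox library. Its log2 fold change of 0.32 (SE 0.11) did not pass in edgeR (adjusted p = 0.0694). It passed in DESeq2 (0.32, adjusted p = 0.0488), in one fit of all 18 libraries (0.38, adjusted p = 0.0492) and without library 2 of Mta3_del/del (0.39, adjusted p = 0.0357). Per kilobase of merged exons, the difference in Mta2 was 15.2 CPM per kilobase against a loss of 10.4 for Mta3. By the longest transcript, mean Mta2 was 86.5 against 66.7 in the parent, and mean Mta3 3.39 against 20.3. A shorter Mta3 length, such as the 2087 bases of its reference transcript, would raise the Mta3 loss and was not used. Which of the changes is larger is therefore not settled. Mta1 was counted at 83.5, 76.3 and 85.2 CPM, a range that overlapped that of its parent (log2 fold change 0.03, 2 standard errors either side from -0.16 to 0.21, adjusted p = 0.855).

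**Figure D3:**
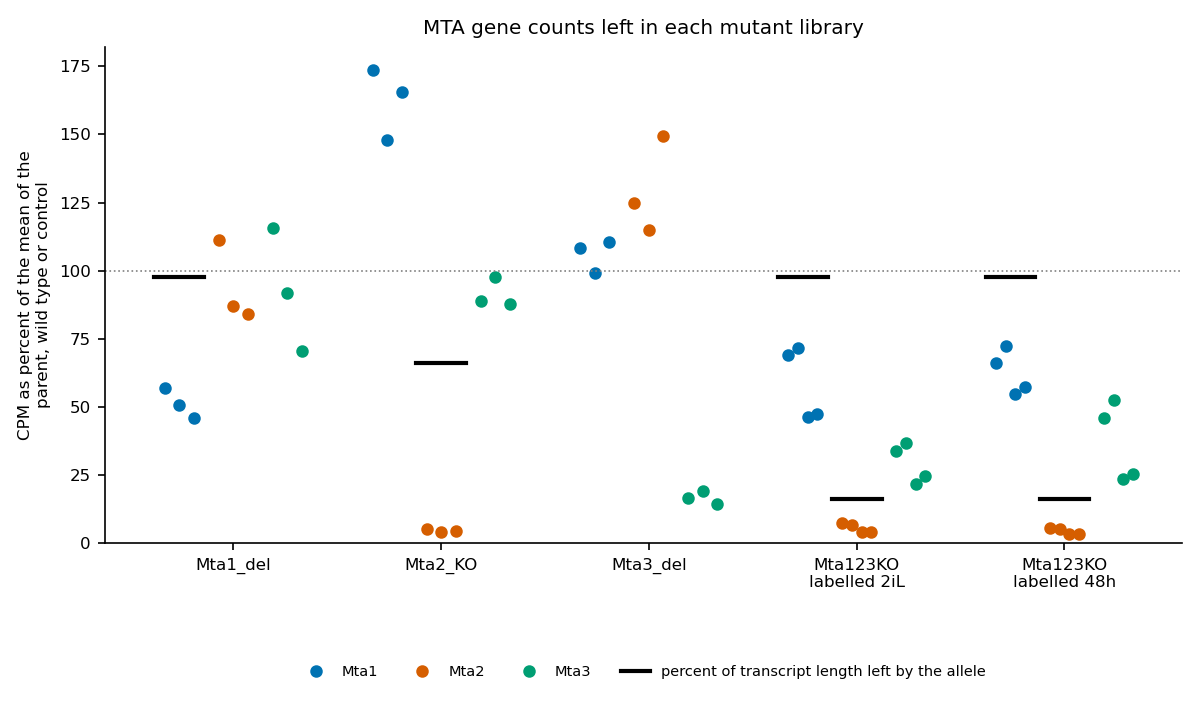
CPM of each MTA gene in each mutant library on the vertical axis, as percent of the mean of the parent, wild type or Control group under the same culture label, which the dotted line marks as 100. Black bars give the percent of reference transcript length that an allele leaves, where the deleted exons are given. Counts lie below the black bar wherever one is drawn, at 3.89 to 5.02% against 66.1% for Mta2 in Mta2_KO.

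In Mta123KO cells all 3 genes fell under both culture labels, to unequal extents. In bulk RNA, fewer cells with a transcript and less of it per cell cannot be told apart. Mta2 was counted at 9.0, 8.02, 5.12 and 4.71 CPM in Mta123KO libraries labelled 2iL, against 129, 111, 126 and 124 CPM in Control. The log2 fold change of Mta2 was -4.17 (SE 0.21, adjusted p = 2.73e-06), where 24.2% of 21651 genes were called lower and 27.1% higher. Labelled 48h, the counts stood at 10.4, 9.56, 6.52 and 6.60 CPM against 201, 185, 193 and 189 CPM, a difference of -4.53 on the log2 scale (SE 0.17, adjusted p = 6.48e-07), where 23.4% of 21079 genes were called lower and 26.6% higher. The counts left were 5.48% and 4.31% of Control, while the targeted allele keeps exon 1 with 16.2% of the length.

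More Mta3 was left than Mta2. It was counted at 22.0, 23.8, 14.0 and 15.97 CPM in Mta123KO labelled 2iL against 74.9, 69.6, 57.3 and 58.5 CPM in Control, a difference of -1.76 on the log2 scale (SE 0.18, adjusted p = 6.77e-05). Labelled 48h, the counts stood at 18.7, 21.4, 9.51 and 10.3 CPM against 42.7, 41.2, 36.4 and 42.8 CPM, a difference of -1.44 on the log2 scale (SE 0.25, adjusted p = 0.00138). The groups did not overlap. The means were 29.1% and 36.8% of Control, beside the 16.7% left in Mta3_del/del relative to its own parent, but these come from separately scaled sets and were not compared.

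Mta1 fell least. It was counted at 29.0, 30.0, 19.4 and 19.8 CPM in Mta123KO labelled 2iL against 34.8, 37.9, 46.6 and 48.6 CPM in Control, a difference of -0.76 on the log2 scale (SE 0.18, adjusted p = 0.0061). Labelled 48h, the counts stood at 18.8, 20.6, 15.5 and 16.3 CPM against 23.4, 24.5, 29.4 and 36.7 CPM, a difference of -0.67 on the log2 scale (SE 0.16, adjusted p = 0.0063). If the Control libraries came from the listed lines, the difference is from 1 intact copy of Mta1, which the labels do not settle. With the libraries of each line summed, which leaves 2 samples a group, the Mta1 calls were lost (adjusted p = 0.103 and 0.0935) and so was the Mta3 call labelled 48h (adjusted p = 0.0511).

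As Mta2 fell furthest, the makeup of the remaining MTA transcripts changed. Per length, Mta1 made up 60.5% of the summed level in Mta123KO labelled 2iL, Mta3 27.1% and Mta2 12.4%. In Control labelled 2iL the order was Mta2 with 53.7%, Mta1 with 24.3% and Mta3 with 22.0%. The sum itself was 13.1 ± 3.20 CPM per kilobase (n = 4) against 55.7 ± 2.17 (n = 4). These counts include any reads from transcripts that the alleles leave without a reading frame. They measure RNA and not protein. In western blots the paper detected no MTA protein from the deleted alleles of the mouse lines, and it describes the triple mutants as lacking all 3 proteins.

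Other measures also differed from Control. The 4 trophoblast markers summed to 32.8 to 193 CPM in Mta123KO labelled 2iL and 71.0 to 364 CPM labelled 48h, against 4.84 to 8.64 CPM in all 8 Control libraries. The naive list summed to 408 to 536 CPM in Mta123KO labelled 2iL, above the 158 to 242 CPM of Control, and to 1890 to 2793 CPM labelled 48h, below the 3681 to 4041 CPM of Control. The formative and early neural list summed to 266 to 342 CPM labelled 2iL against 847 to 1365 CPM, and to 117 to 141 CPM labelled 48h against 102 to 109 CPM. Of 43 other genes tested within 1000000 bases on either side of Mta2, 20 were called lower and 7 higher in Mta123KO labelled 2iL, and 24 lower and 6 higher labelled 48h, with medians of -0.27 and -0.30. Around Mta1, 13 of 29 were called higher and 3 lower labelled 2iL, with a median of 0.36, while Mta1 itself fell. Labelled 48h, 14 of 27 were called higher there and 2 lower. Around Mta3, 7 of 14 were called higher and 2 lower labelled 2iL, and 6 of 12 higher and 2 lower labelled 48h. Among all genes tested, 27.1% were called higher and 24.2% lower labelled 2iL, and 26.6% and 23.4% labelled 48h. The part of these in the MTA values was not tested.

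The Mta123KO lines kept unequal amounts of all 3 transcripts. Line 1 stood above line 2 for each gene under each culture label, with no overlap. The log2 fold change of line 1 against line 2 was 0.45 for Mta1 (SE 0.072, adjusted p = 4.98e-04). It was 0.69 for Mta2 (SE 0.088, adjusted p = 9.09e-05) and 0.81 for Mta3 (SE 0.097, adjusted p = 6.35e-05). These calls stand where 24.4% of 22196 genes were called higher in line 1 and 22.0% lower. Labelled 48h, Mta3 was left at 49.2% of the Control mean in line 1 and at 24.3% in line 2.

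Control lines differed in Mta1, in the opposite sense. Line 1 held 34.8 and 37.9 CPM labelled 2iL and 23.4 and 24.5 CPM labelled 48h, each below line 2 under the same label. The log2 fold change of line 1 against line 2 was -0.43 (SE 0.073, adjusted p = 0.00601), where 3.50% of 21850 genes were called lower and 3.20% higher. Mta2 (-0.02, adjusted p = 0.861) and Mta3 (0.20, adjusted p = 0.109) did not pass. Mta3 passed without Control library 2_2 labelled 48h (0.27, adjusted p = 0.0196) and without the filter on low counts (0.20, adjusted p = 0.04). The labels do not say whether the line numbers of Control and Mta123KO refer to each other, and each line stands for 1 isolate.

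With culture, the MTA genes of Control cells moved in different directions. From libraries labelled 2iL to those labelled 48h, Mta2 rose from 129, 111, 126 and 124 CPM to 201, 185, 193 and 189 CPM. The groups were far apart and differed by 0.66 on the log2 scale (SE 0.059, adjusted p = 2.95e-06). In this comparison 29.5% of 21240 genes were called higher and 29.0% lower. Mta3 fell from between 57.3 and 74.9 CPM to between 36.4 and 42.8 CPM, a difference of -0.66 on the log2 scale (SE 0.094, adjusted p = 1.09e-04).

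Mta1 also fell with the label, to a log2 fold change of -0.54 (SE 0.15, adjusted p = 0.00875). Its ranges overlapped when the lines were pooled and not within either line, and each library labelled 48h held 63.2% to 75.6% of its same-numbered library labelled 2iL. The Mta1 call was lost with the libraries of a line summed (-0.54, adjusted p = 0.0717) and with scaling to the ERCC spike-in RNAs (-0.38, adjusted p = 0.0861). The spike-in share itself varied, from 0.584 to 0.916% in Control labelled 48h and from 0.791 to 0.821% in Control labelled 2iL. Spike-in scaling set the median of all genes at a log2 fold change of 0.18, against which Mta2 and Mta3 kept their directions, and moved the share of higher genes among calls from 50.4% to 62.1%. Relative to other genes, 58.8% changed by less than Mta1, 64.6% by less than Mta2 and 64.4% by less than Mta3.

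Mta2 made up a larger part of the MTA level in Control libraries labelled 48h, 73.6 ± 2.57% (n = 4) against 53.7 ± 1.58% (n = 4). Its gain of 17.0 CPM per kilobase stood beside differences of -4.33 for Mta1 and -4.57 for Mta3. The summed level was 63.8 ± 2.30 CPM per kilobase against 55.7 ± 2.17. The libraries with more Mta2 and less Mta1 and Mta3 were thus those in which the naive list stood at 3681 to 4041 CPM. Single-mutant parents, labelled 2iL, had Mta2 shares of 57.8 to 74.3%.

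**Figure D4:**
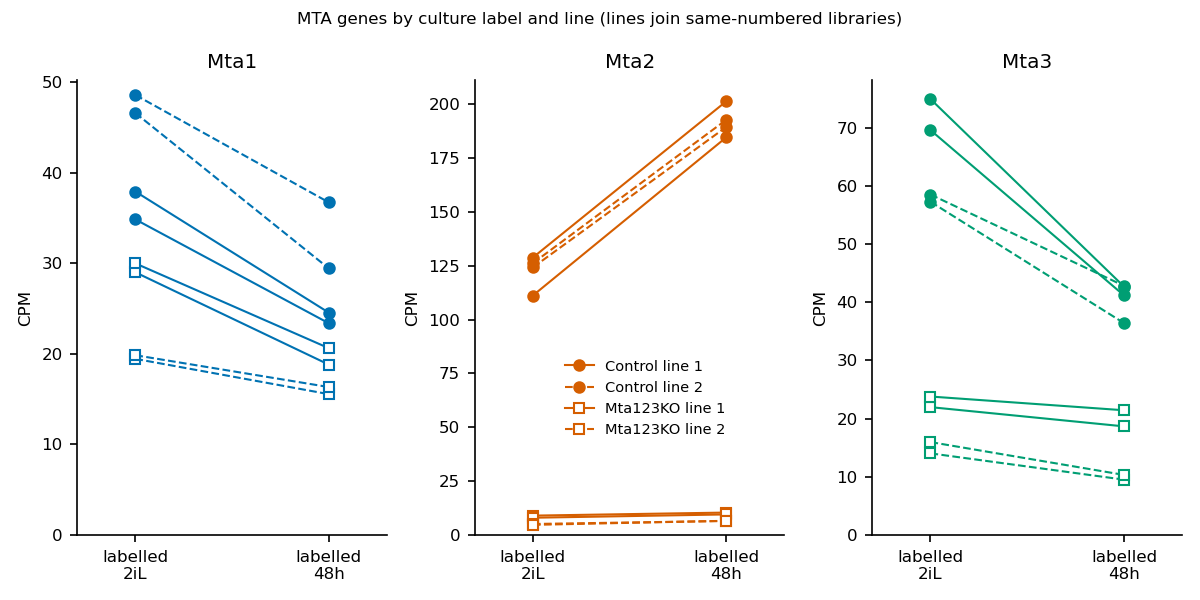
CPM on the vertical axes, each from 0, in libraries labelled 2iL and 48h, with lines joining libraries of the same number; filled circles are Control and open squares Mta123KO, and solid and dashed lines are line 1 and line 2. Mta2 rises in 4 of 4 Control pairs and Mta1 and Mta3 fall in 4 of 4, and the remnant counts in Mta123KO change in the same directions in 4 of 4 pairs each.

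The remnant counts of Mta123KO cells changed in the same directions with culture. Each of 4 same-numbered pairs was lower labelled 48h for Mta1, at 64.9 to 82.3% of the library labelled 2iL, and for Mta3, at 64.7 to 90.1%. Each was higher for Mta2, at 116 to 140.1%. In edgeR none of the 3 passed without a block, where 22.4% of 21505 genes were called in either direction. The log2 fold changes were -0.47 for Mta1 (adjusted p = 0.0881), 0.30 for Mta2 (adjusted p = 0.455) and -0.34 for Mta3 (adjusted p = 0.451). In DESeq2 without a block Mta1 passed (-0.48, adjusted p = 0.0468), and Mta2 and Mta3 did not. Libraries of the same number are of the same line, and once a block for the replicate number entered the fit all 3 passed, at -0.44 for Mta1 (adjusted p = 0.00275), 0.32 for Mta2 (adjusted p = 0.0236) and -0.39 for Mta3 (adjusted p = 0.0175). With the libraries of a line summed, which leaves 2 samples a group, none of the 3 passed (-0.46, 0.30 and -0.33, adjusted p = 0.515, 0.791 and 0.788). The block raised the number of genes called from 4817 to 9534.

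The change with culture was not shown to differ between the genotypes. The interaction, which is the log2 change in Mta123KO minus that in Control, was 0.10 for Mta1 (2 standard errors either side from -0.40 to 0.59, adjusted p = 0.828). It was -0.35 for Mta2 (from -0.87 to 0.17, adjusted p = 0.373) and 0.33 for Mta3 (from -0.31 to 0.98, adjusted p = 0.506). Over 22973 genes, 12.5% had a higher and 10.6% a lower interaction. Spike-in scaling set the median of all genes at -0.22 here, turned the Mta1 value to -0.13 (adjusted p = 0.82) and moved the share of higher genes among calls from 54.3% to 41.1%.

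**Figure D5:**
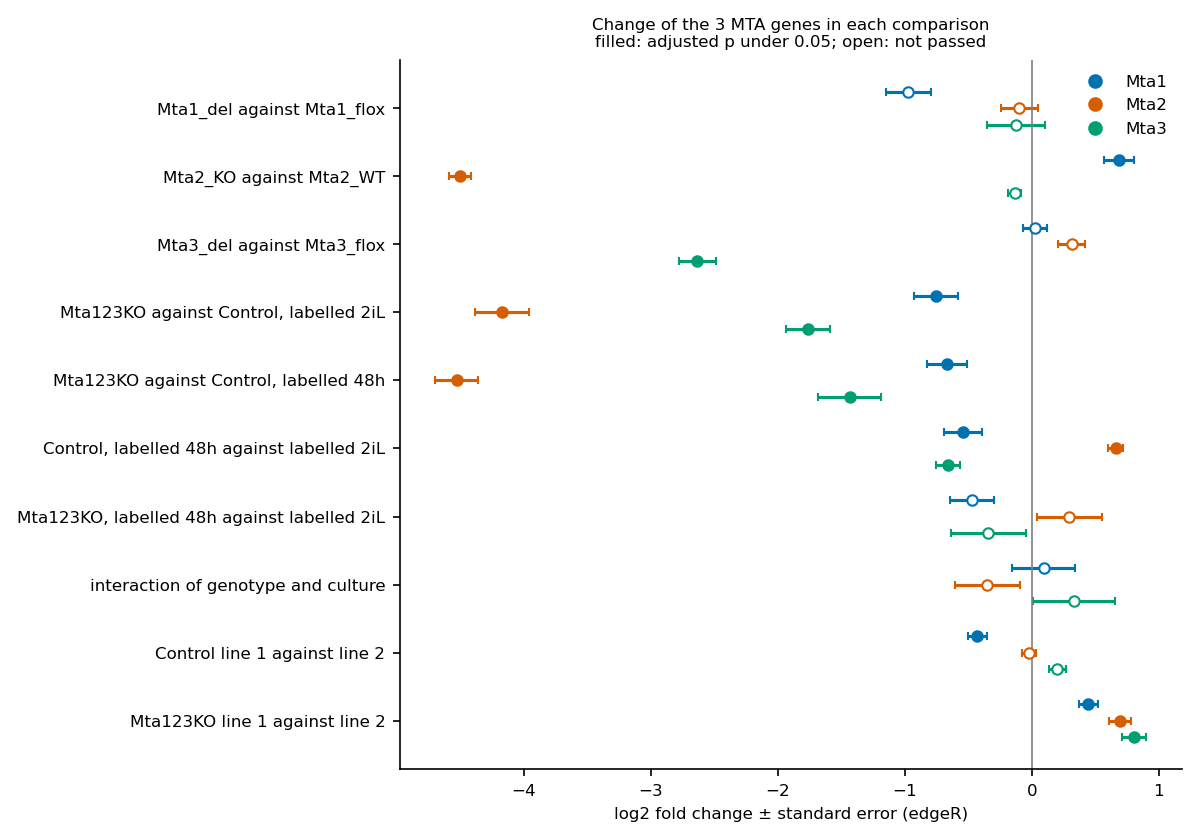
Log2 fold change of Mta1, Mta2 and Mta3 on the horizontal axis, with bars of 1 standard error, in 10 comparisons on the vertical axis; filled points have an adjusted p under 0.05 in edgeR. The deleted Mta2 and Mta3 lie at -1.44 or lower, Mta1 lies between -0.97 and -0.67 where it was deleted, and the culture changes of Control lie between -0.66 and 0.66.

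The partners of the MTA proteins in NuRD were taken as a list of 12 genes: the remodellers Chd3, Chd4 and Chd5, the deacetylases Hdac1 and Hdac2, the chaperones Rbbp4 and Rbbp7, Mbd2 and Mbd3, the Gatad2a and Gatad2b proteins that bridge to the remodeller, and Cdk2ap1. All 12 were tested in each comparison. None was called in Mta1_del/del. In Mta2_KO, 5 of 12 were called higher and 3 lower, where 23.5% of all genes were called higher and 24.3% lower, with a list median of 0.12 beside 0.002 over all genes. In one fit of all 18 libraries 2 were called higher and 2 lower. In Mta123KO the counts were 4 higher and 4 lower labelled 2iL (list median -0.06, all genes 0.007) and 5 higher and 2 lower labelled 48h (0.14 and 0.005). Over all genes 27.1% were called higher and 24.2% lower labelled 2iL, and 26.6% and 23.4% labelled 48h. With the libraries of a line summed the counts of subunits were 2 higher and 2 lower labelled 2iL and 1 higher and 1 lower labelled 48h, and with spike-in scaling 2 higher and 2 lower labelled 48h.

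Chd3 was the subunit with the largest rise in Mta2_KO and in Mta123KO under both labels. It was counted at 112 to 127 CPM in Mta2_KO against 48.9 to 57.7 CPM in Mta2_WT, a log2 fold change of 1.14 (adjusted p = 2e-06). In Mta123KO it rose by 2.19 labelled 2iL (adjusted p = 2.69e-05) and by 1.62 labelled 48h (adjusted p = 0.00133), and line 1 stood above line 2 (0.93, adjusted p = 8.06e-06). Mbd2 rose in Mta123KO by 1.16 and 1.03 (adjusted p = 7.92e-05 and 2.51e-04).

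Mbd3 rose in Mta2_KO by 0.51 (adjusted p = 8.57e-04) and did not pass in Mta123KO (-0.08 labelled 2iL, 0.19 labelled 48h). In Mta2_KO, Cdk2ap1 rose by 0.71 (adjusted p = 8.17e-07) and Gatad2b fell by 0.74 (adjusted p = 1.51e-04). In Mta123KO labelled 2iL, Rbbp4 fell by 0.50 and Cdk2ap1 by 0.52, and Hdac2 was also called lower (-0.415, adjusted p = 0.0142). Labelled 48h, Hdac2 fell by 0.68, Rbbp4 was also called lower (-0.43, adjusted p = 3.19e-04) and Cdk2ap1 did not pass (0.09). Rbbp7 rose there by 0.62 (adjusted p = 0.031), a call that in single omissions held only without Mta123KO library 2_1 or 2_2, and its lines differed by 0.78. Between the Mta123KO lines Hdac1 (-0.54) and Hdac2 (-0.53) were lower in line 1.

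In Mta3_del/del, 4 of 12 were called higher and 1 lower (list median 0.31, all genes -0.013), where 8.32% of all genes were called higher and 7.84% lower. Hdac1 and Rbbp7 rose by 0.65 each, Mbd3 by 0.69 and Cdk2ap1 by 0.52, and Chd5 fell by 0.82, with adjusted p from 0.0148 to 0.0373. The calls changed with the libraries left out. Without library 1 of Mta3_del/del none of 12 passed and 3 genes were called in all, and without each of the other libraries 1 to 6 passed. Hdac1 passed in 5 of 6 such fits, Rbbp7 in 3, Chd5 and Cdk2ap1 in 2 each and Mbd3 in 1. Directions held throughout, at 0.59 to 0.74 for Hdac1, 0.52 to 0.73 for Rbbp7 and -0.86 to -0.75 for Chd5. Mbd3 ran from 0.59 to 0.85 and Cdk2ap1 from 0.44 to 0.63.

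With culture in Control, 5 of 12 were called higher and 5 lower (list median -0.06, all genes 0.006), where 29.5% of all genes were called higher and 29.0% lower. Spike-in scaling left 4 higher and 2 lower. Chd3 (0.96) and Hdac1 (0.61) rose with Mta2, and Chd5 (-1.23), Cdk2ap1 (-1.24) and Mbd3 (-0.48) fell with Mta1 and Mta3, with adjusted p of at most 0.00199. In Mta123KO, 2 of 12 were called, Chd5 (-1.21) and Cdk2ap1 (-0.64), where 22.4% of all genes were called, and with the replicate block 4 higher and 2 lower. None was called with the libraries of a line summed. The interaction called 1 of 12, Cdk2ap1 (0.62, adjusted p = 2.14e-04), where 12.5% of all genes were called higher, and none with spike-in scaling or summed libraries. Between lines, 1 was called higher and 1 lower in Control (all genes 3.20% and 3.50%), and 3 higher and 2 lower in Mta123KO (all genes 24.4% and 22.0%).

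Over the 8 Control libraries, 16627 genes with a mean of at least 1 CPM were ranked by the Pearson correlation of their log2 CPM with each MTA gene. The libraries share 2 lines and 2 culture labels, so a high r needs only a like change with culture and line. The genes most like Mta1 were Gm6763 (r = 0.988), Marveld1 (0.988) and Gm21304 (0.986). Those most like Mta2 were Ppcs, an enzyme of coenzyme A synthesis (0.997), Tpm3-rs7 (0.997) and Arf6, a small GTPase of membrane traffic (0.996). Those most like Mta3 were Naa25, an N-terminal acetyltransferase subunit (0.995), Ldha, a lactate dehydrogenase subunit (0.994) and Cry2, a repressor of the circadian clock (0.993). Over the 9 parental libraries of the single mutants, after the mean of each series was subtracted, r was -0.71, -0.51 and -0.68 for the genes listed with Mta1. It was 0.02, -0.14 and 0.62 for those listed with Mta2 and -0.46, 0.26 and 0.63 for those listed with Mta3.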

How the data were processed

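The deposited values are read counts per gene without normalization, 1 library per file. The authors trimmed reads with Trim Galore! 0.4.1, used Tophat 2.1.0 for alignment to GRCm38/mm10, and counted with featureCounts 1.5.0 and Ensembl release 86. The kit was NEXTflex Rapid Directional or SMARTer Stranded Pico. The strand setting and the treatment of multi-mapping reads are not given in the sources used here. Either could move counts between near-identical genes.

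Genotype, culture and replicate number came from the sample labels, and 34 of 34 libraries were mapped. Symbols, lengths and exons were taken from GENCODE M21. Counts were tested with edgeR 4.0.16 (TMM, filterByExpr, quasi-likelihood F test, Benjamini-Hochberg over all genes tested), only the groups compared entering a fit, and a gene was called at an adjusted p under 0.05. ERCC RNAs were left out of totals. Log2 CPM used a prior count of 2. Steps were tested on simulated counts, in R 4.3.3 and Python 3.11.15 (pandas 2.3.3, matplotlib 3.10.9).

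The members, lists, tests and alternatives were chosen with earlier results of these data known. Genes outside the MTA family are named if they are among the 3 with the highest correlation with an MTA gene over Control libraries, or are called NuRD subunits with an absolute log2 fold change above 0.5, or are Mbd3. Fibroblast markers were at 42.5 to 429.8 CPM and primitive endoderm markers at 0.511 to 9.16 CPM over all groups. Pou5f1 and Sox2 together stood at 291 to 1192 CPM.

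Deviations from group means correlated between same-numbered libraries in the Mta1 series (r of 0.438 to 0.702) and between culture labels in Control (0.269 to 0.334) and Mta123KO (0.553 to 0.586), where a number marks the same line. Such r was mixed in sign in the Mta2 series (-0.186 to 0.311) and the Mta3 series (-0.128 to 0.342). Between Control and Mta123KO it ran from -0.255 to -0.0338 labelled 2iL and from -0.103 to 0.0311 labelled 48h. Libraries of a line differed by more than counting noise (chi-square per degree of freedom 6.32 to 19.4), and each was used as a sample. This excess does not make libraries of a line independent. Between lines under a culture label the values were 17.6 to 34.8 in Control and 87.0 to 112.8 in Mta123KO. Tests and SDs over libraries of the second set thus rest on 2 lines per genotype, and p-values may be too small. Alternatives were DESeq2 1.42.0, no filter on low counts, the replicate or line number as a block, one fit of a set, spike-in scaling, sums over the libraries of a line, single Mta123KO lines, exchanged cultures, another gene length and leaving out each library.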

Additional observations from a re-analysis of the deposited data

How the results depend on the processing

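Of the log2 fold changes of the 3 MTA genes under the alternatives, 382 kept their direction and their side of the threshold, 15 came to pass it, 5 no longer passed it and 15 reversed. Exchanged cultures are counted in this tally, although their outcome is fixed. They can only reverse the sign of the culture changes and interactions, and for Mta123KO against Control they only trade the values of the culture labels. Exchanging the cultures turned the Control changes to 0.54 (Mta1), -0.66 (Mta2) and 0.66 (Mta3), the Mta123KO changes to 0.47, -0.30 and 0.34 and the interactions to -0.10, 0.35 and -0.33. Spike-in scaling gave -0.38 for Mta1 in the Control culture comparison and -0.13 for its interaction, and it set the median of all genes at 0.18 and -0.22 there and at -0.18 in Mta123KO against Control labelled 48h. Summed libraries gave -0.77 and -0.68 for Mta1 and -1.45 for Mta3 (labelled 48h) in Mta123KO, and -0.54 for Mta1 with culture, with calls lost. DESeq2 brought a call for Mta1 in Mta1_del/del (-0.97), Mta2 in Mta3_del/del (0.32) and Mta1 with culture in Mta123KO (-0.48). One fit of 18 libraries did so for Mta2 in Mta3_del/del (0.38), and no filter for Mta3 between Control lines (0.20).

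With a replicate block, the Mta123KO culture changes were -0.44, 0.32 and -0.39, and with a line block -0.45, 0.32 and -0.39, all past the threshold. The replicate block changed no other call of an MTA gene.

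Leaving out 1 library gave ranges of -0.29 to 0.0408 for Mta3 in Mta1_del/del, -0.19 to -0.10 for Mta3 in Mta2_KO, -0.0126 to 0.0968 for Mta1 and 0.21 to 0.39 for Mta2 in Mta3_del/del, -0.0016 to 0.24 for the Mta1 interaction, and -0.0637 to 0.0186 for Mta2 and 0.15 to 0.27 for Mta3 between Control lines. The causes were not tested.

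Counts of called genes moved by over 1.5 times in several settings. In Mta2_KO, one fit of 18 libraries gave 2622 against 7460. In Mta123KO against Control, summed libraries gave 3758 against 11115 labelled 2iL and 4085 against 10548 labelled 48h. The Mta123KO culture comparison gave 9534 and 10470 with the blocks and 2795 with spike-ins, against 4817. With summed libraries it gave 0 in edgeR, where 3568 had an unadjusted p under 0.05. The interaction gave 710 summed and 3364 with spike-ins, against 5306. Between Control lines, 2550 were called without a filter and as few as 756 without 1 library, against 1465. In Mta3_del/del, leaving out 1 library gave 3 to 4131 genes against 2508. With an absolute log2 fold change above 1 as well, 0 to 2 of 12 NuRD subunits were called per comparison. With the longest transcript, Mta1 made up 21.4% in place of 25.3% of the Mta1_flox/flox sum. Depth did not limit the MTA genes, each with at least 211 reads in every library.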
